A study of Mus musculus with 6 samples.

Results

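The 9 genes described here code for a chosen set of amino acid transporters of activated T cells: Slc7a5, Slc3a2, Slc7a6, Slc1a5, Slc1a4, Slc38a1, Slc38a2, Slc7a1 and Slc7a3. They were taken by gene name from the deposited table of 21139 genes, and each of the 9 matched 1 row. The cells were CD4+ T cells from the spleen of C57BL/6J mice, stimulated through CD3 and CD28 with antibodies and cultured for 2 days. The 3 CpdA libraries came from cells that also had CpdA, which the study calls an agonist of the fatty acid receptor Gpr120, at a labelled dose of 20 (written as microm and read here as µM), and the 3 medium libraries from cells in medium alone. The sources used here do not give the age, sex or number of the mice, or any vehicle in the medium cultures. The study asked how the agonist changes the gene profile of these cells.

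A resting T cell takes up few amino acids. After stimulation through the antigen receptor and CD28 it brings more transporters to its surface, and the incoming amino acids serve protein synthesis, feed carbon and nitrogen to biosynthesis and signal to the growth kinase complex mTORC1. Slc7a5 is the light chain of the system L exchanger, which imports leucine and other large neutral amino acids and often exports glutamine in return; in mouse T cells it is needed for clonal expansion. Its heavy chain, Slc3a2 (CD98), brings several SLC7 light chains to the cell surface. Transcription of many of these genes is known to respond to MYC, which binds E boxes, and to ATF4, which binds amino acid response elements when amino acids are short.

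With CpdA, 8 of the 9 transporter genes rose and 0 fell, where 16.5% of all genes tested rose and 16.7% fell (edgeR quasi-likelihood test, Benjamini-Hochberg adjusted p under 0.05 over 13507 genes). The exception was Slc1a4, the least abundant of the 9, whose log2 fold change was 0.18 (adjusted p = 0.0593); no member had a fold change below 0. The changes were small, from a log2 fold change of 0.12 for Slc7a1 to 0.50 for Slc7a3, with a median of 0.20 against 0.0004 over all genes tested. In all 9 genes the lowest CpdA library lay above the highest medium library, which held for 22.9% of genes tested. In 21% the order was the reverse, and in 43.9% the groups did not overlap either way. The members, and the gene lists below, were chosen with earlier results of these data known. The shares of all genes tested are therefore a background to the counts, not a test of the set. Nor were these shares matched to the level of the members. By mean FPKM, Slc7a5 lay above 96.1% of the genes tested and Slc1a4 above 39.3%. Whether replicates of a group were separate mice or cultures is not stated, and the p-values therefore cover the spread between these libraries alone, which may be technical. In bulk RNA, more cells with a transcript and more transcript per cell cannot be told apart.

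The promoters of the members were read for the letters bound by MYC and ATF4. These are the E box CACGTG, and the core of the amino acid response element, TGATGNAA, whose reverse complement is TTNCATCA. Control of the members by either factor was not tested. Windows of 300 bases (250 before and 50 after a transcript start; RefSeq, GRCm38.p6) were at hand for 5 of the 9 members, in 7 windows: Slc3a2, Slc7a6, Slc38a2, Slc7a1 and Slc1a4. The E box was in 0 of the 7 windows, against 7.15% of 32851 windows of the genome, and the amino acid response core was in 1 of the 7, that of Slc1a4, against 3.97%. At such shares, 7 windows of any genes would hold few or no matches, so these counts do not set the members apart. The windows of Slc7a6 also share most of their bases. The members without a window, Slc7a5, Slc1a5, Slc38a1 and Slc7a3, had the largest fold changes of the 9. The windows of Slc1a4, of the heavy chain Slc3a2 and of Slc38a2 are shown to set the 1 window with a match beside those of 2 members that rose; each runs 5′ to 3′ on the minus strand, and capitals mark the match.
Slc1a4, chr11:20332664-20332963: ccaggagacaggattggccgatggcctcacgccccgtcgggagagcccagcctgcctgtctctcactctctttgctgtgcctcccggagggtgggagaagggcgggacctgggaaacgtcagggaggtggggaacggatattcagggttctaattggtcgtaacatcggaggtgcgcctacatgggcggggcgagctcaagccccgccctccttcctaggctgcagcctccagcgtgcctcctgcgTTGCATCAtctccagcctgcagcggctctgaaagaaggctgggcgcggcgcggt
Slc3a2, chr19:8713848-8714147: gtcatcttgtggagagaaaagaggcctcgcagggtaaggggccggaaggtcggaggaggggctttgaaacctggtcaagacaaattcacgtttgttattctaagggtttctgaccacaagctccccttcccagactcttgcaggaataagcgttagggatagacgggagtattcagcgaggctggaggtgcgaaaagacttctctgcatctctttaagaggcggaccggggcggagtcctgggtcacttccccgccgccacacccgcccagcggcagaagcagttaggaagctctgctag
Slc38a2, chr15:96699679-96699978: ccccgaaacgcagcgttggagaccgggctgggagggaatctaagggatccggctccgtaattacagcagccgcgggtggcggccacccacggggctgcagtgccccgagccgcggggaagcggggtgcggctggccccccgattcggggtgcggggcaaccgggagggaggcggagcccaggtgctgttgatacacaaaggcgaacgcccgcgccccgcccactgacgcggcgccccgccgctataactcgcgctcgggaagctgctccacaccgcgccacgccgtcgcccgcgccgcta
The match in Slc1a4, TTGCATCA, has its first base at position -4 from the start and runs across it. The match is a description of letters, not a measured binding site, and elements outside these windows were not searched.

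Across the libraries, totals ran from 21407172 to 25952169 counts with CpdA and from 20247761 to 23640735 in medium, so the least abundant member still had at least 328 counts in each library. Each pair of libraries within a group differed by more than sampling noise (chi-square per degree of freedom 2.18 to 4.18). Markers of CD4 T cells summed to 2720 to 2779 CPM (the count scaled by the library total to a common depth) with CpdA and 2800 to 2862 CPM in medium, led by Cd5. Cd5 itself went the other way from the sum, with means of 638 CPM with CpdA and 573 CPM in medium. Markers of other cells were low: CD8 T cells 7.33 to 9.40 CPM with CpdA and 7.995 to 8.84 in medium, B cells 27.6 to 32.4 and 26.5 to 32.05, NK cells 0.747 to 1.27 and 1.18 to 1.53, macrophages 4.32 to 4.44 and 4.78 to 5.88, dendritic cells 6.86 to 8.22 and 6.12 to 6.67, and erythroid cells 0.635 to 0.963 and 0.494 to 1.23. The CpdA and medium libraries did not overlap for the CD4 T cell, macrophage and dendritic cell sums (exact two-sided permutation p = 0.1 for each, the smallest that 3 against 3 allows, and 0.233 adjusted over 7 lists). Adgre1, of the macrophage list, was not analysed here. The part of these differences in the transporter results was not tested.

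The exchanger of large neutral amino acids was the most abundant of the 9. Slc7a5 (chromosome 8, 121881150 to 121907694, GRCm38, as are all coordinates of genes here; protein coding, minus strand) had 453, 427 and 466 CPM in the CpdA libraries and 361, 394 and 386 CPM in the medium libraries. Every CpdA library was above every medium library, by at least 33.2 CPM. The means were 449 ± 20 CPM with CpdA and 380.1 ± 17 CPM in medium (SD, n = 3 each), a fold of 1.17 and a log2 fold change of 0.23 ± 0.03 (SE; edgeR, adjusted p = 5.3e-07). Its fold change was above that of 87.4% of all genes tested.

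Its heavy chain had a smaller estimated change, though the 95% intervals overlapped (log2 0.16 to 0.29 for Slc7a5 and 0.07 to 0.19 for Slc3a2, edgeR). Slc3a2 (chromosome 19, 8706882 to 8723369, minus strand) had 269, 264 and 272 CPM with CpdA, against 236, 247.1 and 246.6 CPM in medium. The groups did not overlap, and the log2 fold change was 0.13 ± 0.03 (SE; edgeR, adjusted p = 0.000574), a fold of 1.10. Slc7a6 (chromosome 8, 106168875 to 106198704, plus strand), the y+L light chain that joins the same heavy chain and exchanges arginine for neutral amino acids such as glutamine, had 71.4, 71.1 and 73.1 CPM with CpdA, against 61.6, 63.4 and 61.5 CPM in medium. Its replicates lay closest together of the 9 genes, with a coefficient of variation of 1.49% with CpdA and 1.67% in medium. The log2 fold change of Slc7a6 was 0.20 ± 0.04 (SE; edgeR, adjusted p = 0.000314).

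**Figure D1:**
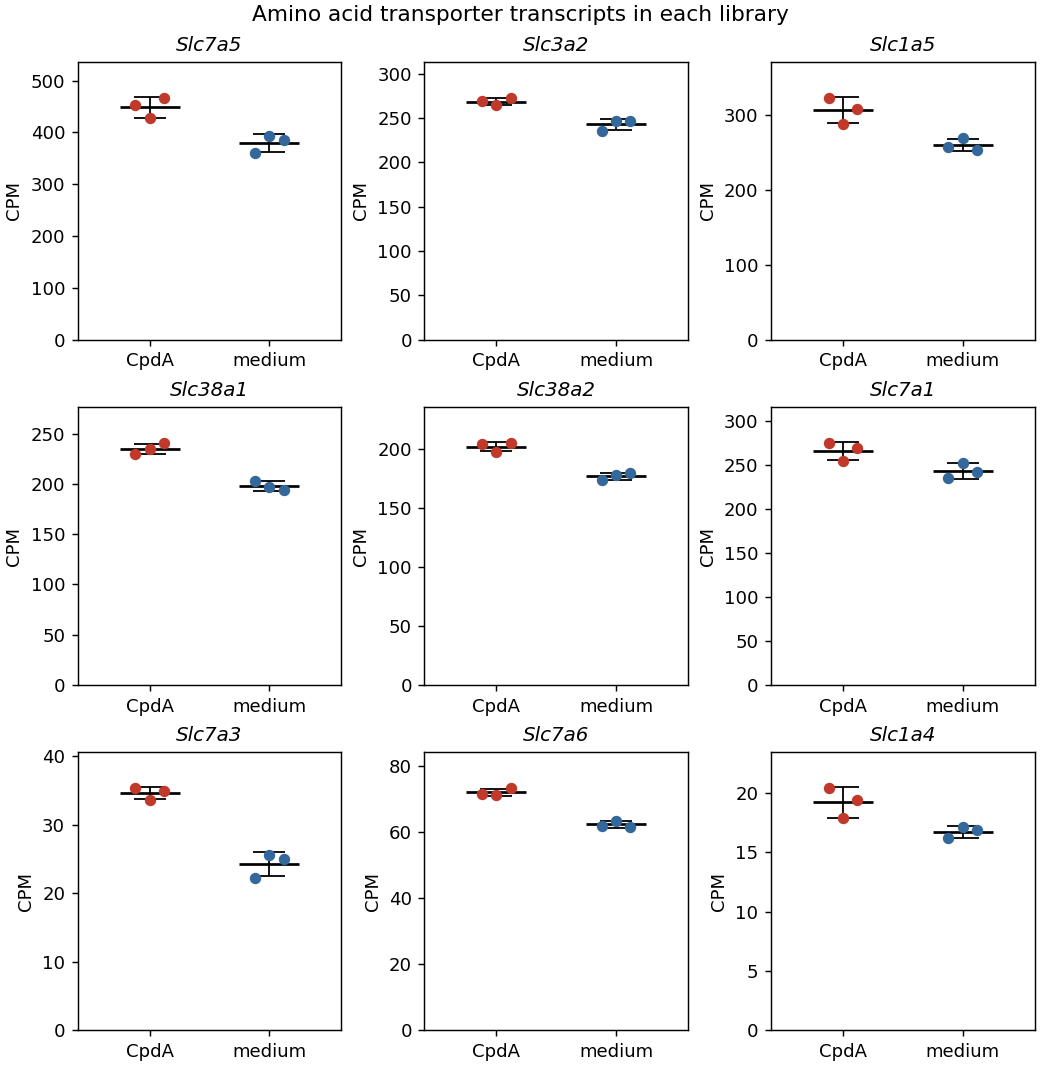
Library-scaled counts (CPM, vertical axes starting at 0) of each of the 9 transporter genes in the 3 CpdA libraries (red points, left) and the 3 medium libraries (blue points, right); bars are the mean and SD. In each panel all CpdA points lie above all medium points, with the widest relative gap for Slc7a3 and the narrowest for Slc7a1 and Slc1a4.

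The sodium-dependent exchangers of alanine, serine, cysteine and glutamine differed widely in level. Slc1a5 (chromosome 7, 16781346 to 16798274, plus strand), the exchanger that is a main route for glutamine in many proliferating cells, had 322, 288 and 309 CPM with CpdA, against 258, 269 and 253 CPM in medium. All CpdA libraries were higher, with CpdA replicate 2 nearest to the medium libraries. The log2 fold change was 0.23 ± 0.03 (SE; edgeR, adjusted p = 1.31e-06), a fold of 1.17. Its relative Slc1a4 (chromosome 11, 20302180 to 20332713, minus strand), which carries alanine, serine and cysteine, had 20.4, 17.9 and 19.4 CPM with CpdA, against 16.2, 17.2 and 16.9 CPM in medium. The gap between the lowest CpdA and the highest medium library was 0.705 CPM. The interval of its log2 fold change ran from 0.03 to 0.34 (95%, edgeR). Slc1a4 passed the threshold without CpdA replicate 2 (log2 fold change 0.24, adjusted p = 0.0274) and with scaling by library size alone (0.19, 0.0464), and its adjusted p reached 0.220 over the other settings.

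Both system A transporters, which draw in glutamine, alanine and other small neutral amino acids with sodium, rose. Slc38a1 (chromosome 15, 96571418 to 96642913, minus strand) had 229.6, 234 and 240.2 CPM with CpdA, against 203, 196 and 194 CPM in medium. Slc38a2 (chromosome 15, 96687394 to 96699698, minus strand), the system A gene best known for induction when amino acids are short, had 204, 197 and 205 CPM with CpdA, against 173.5, 178 and 179.5 CPM in medium. Neither gene had overlapping groups. The log2 fold changes were 0.24 ± 0.03 for Slc38a1 (SE; edgeR, adjusted p = 7.09e-08) and 0.18 ± 0.03 for Slc38a2 (adjusted p = 1.36e-05).

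The cationic amino acid transporters, which import arginine, lysine and ornithine without a heavy chain, held both the smallest and the largest of the 9 changes. Slc7a1 (chromosome 5, 148327410 to 148399904, minus strand), the widely expressed member, had 275, 255 and 269 CPM with CpdA, against 235, 253 and 243 CPM in medium. Its groups nearly met, 2.55 CPM apart at CpdA replicate 2 and medium replicate 2, and the log2 fold change was 0.12 ± 0.03 (SE; edgeR, adjusted p = 0.00344). Slc7a3 (chromosome X, 101079210 to 101086020, minus strand), best known from brain, had 35.3, 33.6 and 34.96 CPM with CpdA, against 22.2, 25.6 and 24.98 CPM in medium. The groups were 7.97 CPM apart, and the fold was 1.41 (95% interval 1.29 to 1.54), a log2 fold change of 0.50 ± 0.06 (SE; edgeR, adjusted p = 2.86e-08). Slc7a3 ranked 324 among the 13507 genes tested by fold change. The lower limit of its interval (0.37) was above the upper limit of each of the other 8 members, the highest of which was 0.34 for Slc1a4.

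**Figure D2:**
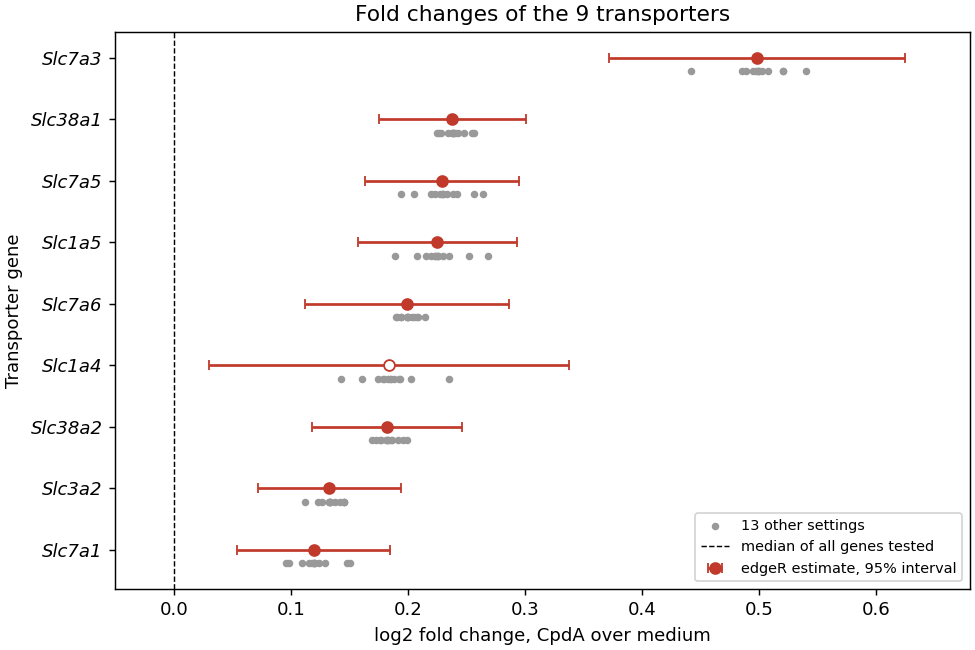
Log2 fold change of CpdA over medium (horizontal axis) for each of the 9 transporter genes, with the edgeR estimate and its 95% interval in red (open where the adjusted p was not under 0.05), the values under 13 other settings in grey and the median of all genes tested as a dashed line. Slc7a3 stands to the right at 0.50, the other 8 lie between 0.12 and 0.24, and the grey points stay above 0 for every gene.

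Per gene length the 9 spanned a wide range of levels. The deposited FPKM (counts per kilobase of gene length, scaled by the library total as CPM is) of Slc7a5 was 127.6 ± 5.6 with CpdA and 108.1 ± 4.9 in medium (SD, n = 3 each). Slc1a5 followed at 109.1 ± 6.1 FPKM with CpdA and 92.7 ± 3.0 in medium, and Slc3a2 at 95.5 ± 1.4 and 86.5 ± 2.2 FPKM. The levels were then 43.7 and 38.2 FPKM for Slc38a2, 37.1 and 33.9 for Slc7a1, 30.3 and 25.5 for Slc38a1, 19.3 and 16.7 for Slc7a6, 12.6 and 8.83 for Slc7a3 and 4.90 and 4.27 for Slc1a4, with CpdA and in medium in each case. This order was the same in both groups, and no neighbours in it overlapped within either group, though it rests on 1 deposited length per gene. Slc7a5, Slc1a5 and Slc3a2 made up 26.6%, 22.7% and 19.9% of the summed FPKM of the 9 with CpdA, and 26.1%, 22.4% and 20.9% in medium. By mean FPKM, Slc7a5 lay above 96.1% of the genes tested and Slc1a4 above 39.3%.

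**Figure D3:**
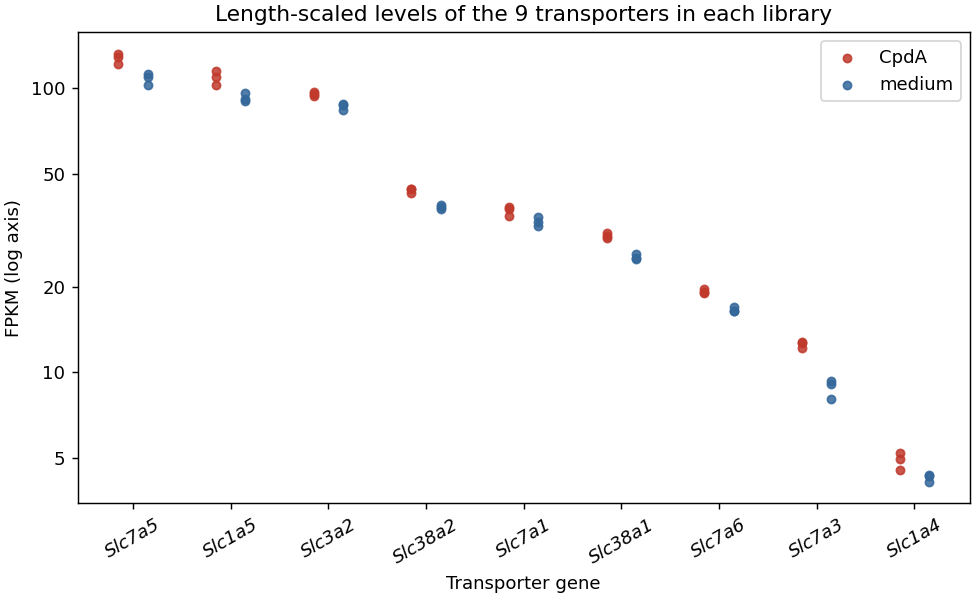
Deposited FPKM (log axis) of each of the 9 transporter genes in the 3 CpdA libraries (red) and 3 medium libraries (blue), ordered by level in medium. The order runs from Slc7a5 to Slc1a4 in both groups, and the spread between genes is much wider than the shift between groups.

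Ratios of related transporters within a library, in which the library's scale cancels, showed whether partners moved to the same extent. Slc7a5 over Slc3a2 was 1.347, 1.292 and 1.368 in FPKM with CpdA, against 1.222, 1.275 and 1.251 in medium. Slc7a6 over Slc3a2 was 0.200, 0.203 and 0.202 with CpdA, against 0.197, 0.193 and 0.188 in medium. Both light chains were therefore higher relative to their heavy chain in every CpdA library, by 0.10 and 0.07 on the log2 scale. The summed FPKM of the 6 light chain genes that can join Slc3a2 was 1.51 to 1.58 times that of Slc3a2 with CpdA and 1.43 to 1.48 times in medium. Slc7a3 over Slc7a1 was 0.335, 0.344 and 0.339 with CpdA, against 0.246, 0.265 and 0.269 in medium, a log2 difference of 0.38. These 3 ratios did not overlap between groups (exact two-sided permutation p = 0.1 each, the smallest this design allows, and 0.167 adjusted over 5 pairs). Slc38a1 over Slc38a2 (log2 difference 0.05, exact p = 0.2) and Slc1a5 over Slc1a4 (0.04, exact p = 0.3) overlapped between groups, with adjusted p of 0.25 and 0.3. These small differences moved with single libraries: the Slc38a1 to Slc38a2 difference was 0.09 without medium replicate 1 and 0.03 without medium replicate 3, and the Slc1a5 to Slc1a4 difference was 0.01 without medium replicate 3.

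**Figure D4:**
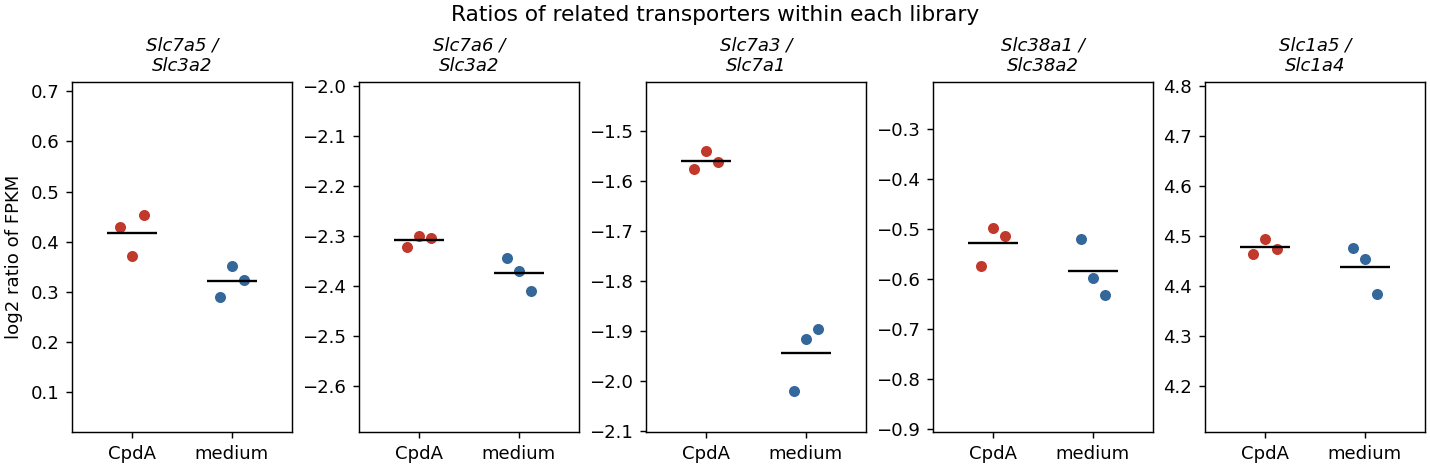
Log2 ratio of the FPKM of related transporter genes within each library, in the 3 CpdA libraries (red, left) and 3 medium libraries (blue, right); lines are means, and all 5 vertical axes span the same width. The Slc7a3 to Slc7a1 ratio parts furthest, by 0.38, and the last 2 ratios overlap between groups.

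Within groups the 9 genes shared small shifts. In CpdA replicate 2, 8 of the 9 lay below their CpdA mean (on average by -0.04 on the log2 CPM scale), and in CpdA replicate 3 none did. In medium replicate 1, 8 of the 9 lay below their medium mean (on average by -0.04), and in medium replicate 2 only 1 did. The share of all genes tested with such shifts was not counted, so they cannot be called particular to the 9. Among genes at large, CpdA replicate 2 also differed more from CpdA replicates 1 and 3 (chi-square per degree of freedom 4.18 and 3.73) than these did from each other (2.2). Over the 6 libraries Pearson's r between members ran from 0.74 to 0.99 over the 36 pairs of members, with a median of 0.93. All members share the libraries, and the difference between groups enters each r.

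Among 6742 genes above the median expression, the log2 CPM most like that of Slc7a5 over the 6 libraries was that of Mybbp1a (r = 0.998), Hn1l (0.997), Flna (0.997), Gps1 (0.997) and Prmt7 (0.997). Those most like Slc7a3 were Rrs1, Nmd3, Banf1, Arhgap21 and Etf1, each at r = 0.998. An r above 0.9 was reached by 14.7% of these genes with Slc7a5 and by 17.7% with Slc7a3, so likeness of this degree was common. The log2 fold changes of these 10 genes ran from 0.09 (Banf1) to 0.50 (Rrs1). Banf1 missed the threshold under the replicate block and without CpdA replicate 3, medium replicate 1 or medium replicate 3 (adjusted p = 0.0566 to 0.1).

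Amino acid transporters of the plasma membrane beyond the 9 were also read. Of 13 that could be tested, 3 rose and 2 fell (23.1% and 15.4%, near the 16.5% and 16.7% of all genes tested), with a median log2 fold change of -0.13. The aromatic amino acid transporter Slc16a10 had 34.9, 37.9 and 36.8 CPM with CpdA, against 26.9, 26.9 and 27.5 CPM in medium, a log2 fold change of 0.42 (edgeR, adjusted p = 2.15e-07). The cystine and glutamate exchanger Slc7a11, a further partner of Slc3a2, was scarce at 4.67, 6.20 and 4.84 CPM with CpdA and 2.42, 3.47 and 3.37 CPM in medium, and rose by 0.75 (edgeR, adjusted p = 0.000268). The glycine transporter Slc6a9 rose by 0.36 (adjusted p = 0.00294). Slc43a2, which lets large neutral amino acids pass without exchange, fell: it had 41.6, 45.9 and 46.5 CPM with CpdA, against 56.5, 54.5 and 59.3 CPM in medium, a log2 fold change of -0.35 (edgeR, adjusted p = 6.02e-07). Slc38a3, a glutamine transporter best known from liver and kidney, fell by 0.88 (adjusted p = 0.000369), with means of 1.90 CPM with CpdA and 3.50 CPM in medium; 1 of the 2 lower genes was left with a minimum of 5 CPM in 3 libraries. The other 12 plasma membrane transporters found in the table had too few counts to be tested, at most 24 summed over the CpdA libraries and 33 over the medium libraries.

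Of 13 transporters of lysosomes and other inner membranes 0 rose and 2 fell by edgeR at an adjusted p under 0.05 (median 0.04); the 15.4% that fell is near the 16.7% of all genes tested, of which 16.5% rose. DESeq2 and limma-voom also called 0 higher, and at an unadjusted p under 0.05 edgeR had 1, the lysosomal transporter gene Pqlc2 (log2 fold change 0.25, adjusted p = 0.0741), named here after its value was seen. The genes that fell were Slc38a10 (log2 fold change -0.14, adjusted p = 0.00184) and Slc38a9, the lysosomal arginine sensor of mTORC1 (-0.17, adjusted p = 0.0466). Slc38a9 lay at the threshold and missed it under 8 of the 13 other settings, among them DESeq2 (adjusted p = 0.110) and without CpdA replicate 3 or any 1 of the medium libraries (0.0556 to 0.279). Without medium replicate 3, Pqlc2 rose (log2 fold change 0.39, adjusted p = 0.016).

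In amino acid sensing by mTORC1, 6 of 37 genes tested rose and 4 fell (16.2% and 10.8%, against 16.5% and 16.7% of all genes tested), so the list did not stand out from the background, with a median log2 fold change of 0.03, and Mtor itself had -0.08 (edgeR, adjusted p = 0.134), which passed without medium replicate 2 (-0.13, 0.0219). Lars, the leucyl-tRNA synthetase, rose by 0.29 (edgeR, adjusted p = 1.56e-09), with 227 ± 5 CPM with CpdA and 185 ± 5 CPM in medium (SD, n = 3). The leucine sensor Sesn2 rose by 0.18, Rheb, the GTPase that activates mTORC1, by 0.17, and the lysosomal scaffold gene Lamtor3 by 0.22 (adjusted p = 0.00299, 0.0049 and 0.005). The arginine sensor family, listed as Gatsl2 and Gatsl3 and also called Castor genes, fell by 0.41 and 0.23 (adjusted p = 4.43e-09 and 6.97e-05). The GTPase gene Rragd fell by 0.21 (adjusted p = 0.00856) and the sestrin Sesn3 by 0.11 (adjusted p = 0.035). Without medium replicate 3, Rragd (adjusted p = 0.0502) and Sesn3 (0.268) missed the threshold and 2 genes of the list fell; Sesn3 also missed it without CpdA replicate 1 (0.281) or medium replicate 1 (0.0663), with the replicate block (0.0603), with DESeq2 (0.0821) and with library size alone (0.0523).

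Among 28 regulators of transporter transcription and turnover, 12 rose and 11 fell (42.9% and 39.3%, against 16.5% and 16.7% of all genes tested), with a median log2 fold change of 0.004. Atf4, the main factor of the amino acid response, had 406, 381 and 396 CPM with CpdA, against 334.5, 360.4 and 346 CPM in medium, a log2 fold change of 0.17 (edgeR, adjusted p = 1.81e-05). Its relatives Atf5 and Atf3 rose by 0.37 and 0.19 (adjusted p = 1.74e-05 and 2.37e-05). Of the 4 kinases that act upstream, Eif2ak4, which senses uncharged tRNA, fell by 0.20 and Eif2ak3, which senses unfolded protein, by 0.18 (adjusted p = 0.00109 and 0.00606). Eif2ak1, which senses heme, was at -0.02 on the log2 scale (adjusted p = 0.866), and Eif2ak2, which senses double-stranded RNA and is induced by interferon, rose by 0.30 (adjusted p = 7.43e-07).

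Myc had 271, 247.0 and 274 CPM with CpdA, against 234, 255 and 239.5 CPM in medium, so the groups overlapped. Its log2 fold change of 0.11 passed the threshold (edgeR, adjusted p = 0.0136) and was lost without CpdA replicate 1, CpdA replicate 3, medium replicate 1 or medium replicate 3 (adjusted p = 0.0702, 0.106, 0.0927 and 0.0609). Mxd4, Mxd1 and Mxi1 code for MAX partners that oppose MYC. Mxd4 had 34.8, 38.3 and 33.6 CPM with CpdA, against 62.9, 55.6 and 52.5 CPM in medium, a log2 fold change of -0.69 (edgeR, adjusted p = 2.83e-11). Mxd1 fell by 0.35 and Mxi1 by 0.27 (adjusted p = 6.19e-09 and 3.44e-07). Max itself also fell, by 0.13 (edgeR, adjusted p = 0.01), and the activity of MYC was not tested. Sh3rf1, a scaffold of JNK signalling, fell by 0.42 (adjusted p = 5.78e-09).

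Of 31 enzymes that use the transported amino acids, 11 rose and 4 fell (35.5% and 12.9%, against 16.5% and 16.7% of all genes tested), with a median log2 fold change of 0.08. Those with the smallest p among the risers work on methionine, serine, glycine and asparagine. Mat2a, which turns methionine into S-adenosylmethionine, had 189, 168.0 and 176 CPM with CpdA, against 106.5, 117 and 107 CPM in medium (log2 fold change 0.68, adjusted p = 1.54e-15, edgeR). Shmt1, which interconverts serine and glycine, rose by 0.54, Asns, which makes asparagine, by 0.27 and Psph, the last enzyme of serine synthesis, by 0.23 (edgeR, adjusted p = 4.02e-11, 1.25e-08 and 9.02e-06). The genes that fell act on glutamine, glutamate, aspartate and branched-chain amino acids. The glutaminase gene Gls2 had 39.8, 45.0 and 41.5 CPM with CpdA, against 62.3, 59.4 and 60.15 CPM in medium, a log2 fold change of -0.53 (edgeR, adjusted p = 4.86e-11). Glutamate dehydrogenase (Glud1) fell by 0.16, the aspartate aminotransferase Got1 by 0.12 and the branched-chain keto acid dehydrogenase subunit Bckdha by 0.31 (adjusted p = 4.36e-05, 0.00235 and 0.000827).

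**Figure D5:**
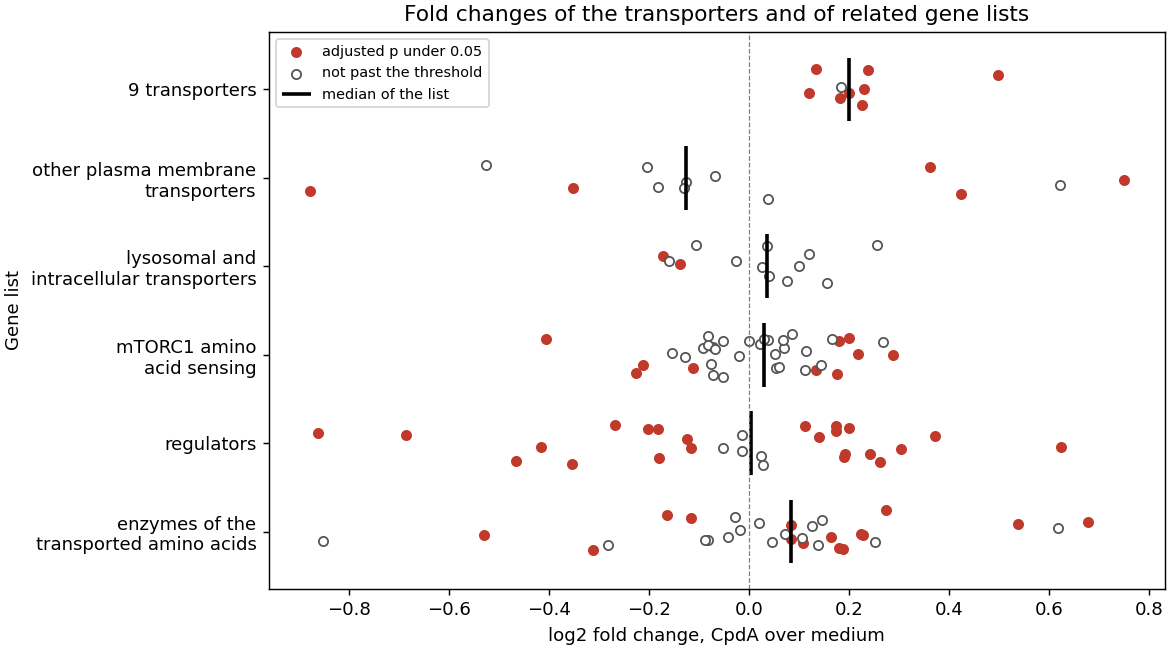
Log2 fold change of CpdA over medium (horizontal axis) for the 9 transporters and the tested genes of 5 related lists, with 1 point per gene, filled where the edgeR adjusted p was under 0.05, and a bar at each list's median. The 9 transporters all lie right of 0 with a median of 0.20, whereas each of the 5 lists spreads to both sides.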

How the data were processed

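RNA was sequenced from 3 CpdA and 3 medium libraries, grouped by their labels. The deposited table gives raw read counts per gene, per the file headers, and FPKM values that the authors computed from those counts; dividing the counts by the deposited gene length and library total returned each FPKM to a relative 1.86e-07. Per the submitters' processing notes, CASAVA 1.8 was used, with GRCm38 and mm10 as builds. The sources used here do not give the aligner, counter, annotation or strand setting. In GENCODE M21 (GRCm38) no exon of another gene overlapped the exons of the 9 members.

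Counts were tested with edgeR 4.0.16 in R 4.3.3 (quasi-likelihood test, TMM scaling, robust dispersions, no covariates). filterByExpr, with a minimum count of 10 and minimum total of 15, left 13507 genes, over which Benjamini-Hochberg adjustment was made, with a threshold of 0.05. Fold changes are given on the log2 scale, CpdA over medium. Log2 CPM for likeness had a prior count of 2. At the lowest depth, a gene with 0 counts could be at up to 0.148 CPM (3 counts, counting error only). In simulated counts for CpdA against medium (13347 genes tested), the test found 65.2% of genes with a 1.25-fold change and 90.6% with a 2-fold change, and it called 10 of 13152 genes with none. Far fewer genes were changed there than the 33.2% called in the data. Every member but Slc7a3 had a fold below 1.25, so these shares do not give the power for the members.

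The members and gene lists were chosen with earlier results of these data known. Genes named are the 9 members, up to 4 called genes with the smallest p in each direction from each list, Myc, Atf4, Eif2ak4, Mtor and Slc7a11, and the 5 genes most like Slc7a5 and Slc7a3. Cd5, Adgre1, Pqlc2, Eif2ak1, Eif2ak3 and Max were named after their values were seen. Alternatives were other scalings (DESeq2 size factors, library size), other count filters, DESeq2 1.42.0, limma-voom (limma 3.58.1), the replicate number as a block, and each library left out.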

Additional observations from a re-analysis of the deposited data

How the results depend on the processing

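All 9 transporters kept their direction under the 13 other settings, and in 115 of 117 comparisons their side of the threshold; the others were Slc1a4 with library size alone (0.19) and without CpdA replicate 2 (0.24). With 1 library left out, log2 fold changes ran from 0.19 to 0.26 for Slc7a5, 0.44 to 0.54 for Slc7a3, 0.10 to 0.15 for Slc7a1 and 0.14 to 0.24 for Slc1a4. Of the 9, 8 to 9 were higher. Same-numbered CpdA and medium libraries did not deviate together (r = -0.021, -0.015 and -0.001). These r values cannot tell whether same-numbered libraries shared a mouse, culture or day, which is not stated. With the replicate block 8 of the 9 were still higher, and 1927 genes rose and 2009 fell, against 2231 and 2252 without it.

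Of the plasma membrane transporters beyond the 9, 1 fell with a minimum of 5 CPM in 3 libraries, which tests fewer genes. For lysosomal and intracellular transporters, 1 was lower with library size alone, no count filter, DESeq2 or the replicate block, 1 to 2 were lower with 1 library left out, and 0 to 1 higher; the cause was not tested. In the mTORC1 list 4 to 8 were higher and 2 to 5 lower with 1 library left out, and DESeq2 called 4 higher, against 6 by edgeR. Of the enzymes, 8 to 12 were higher and 4 to 5 lower with 1 library left out. DESeq2 called 8 enzymes higher, against 11 by edgeR. Of the regulators, 10 to 12 were higher and 9 to 11 lower with 1 library left out. Among 47 other named genes, which leave out Max, 581 of 609 comparisons kept direction and side of the threshold, 23 lost the call and 2 gained it. The other 3 were Eif2ak1, near 0 throughout, whose log2 fold change ran from -0.0537 to 0.012 with 1 library left out and was above 0 without CpdA replicate 2, CpdA replicate 3 (0.0026) or medium replicate 3 (0.0028). Log2 differences of summed markers changed sign with 1 library left out for CD8 T cells (-0.031 to 0.141), B cells (-0.095 to 0.038) and erythroid cells (-0.316 to 0.303), and none of these had passed a test. As TPM, the summed level of the 9 was 988 with CpdA and 861 in medium, against 480.1 and 415 as FPKM. In the 150 bases before the start, 0 members held the amino acid response core. Depth limits the scarce transporters: 12 in the table were too low to test.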
